A study of Homo sapiens with 24 samples.

Results

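Expression of 10 SR splicing factor genes was examined by RNA-seq in ovarian carcinoma cells of the PEO1 and PEO4 lines, before and after treatment with pyridostatin (PDS). The genes were SRSF1, SRSF2, SRSF3, SRSF4, SRSF5, SRSF6, SRSF7, SRSF10, SRSF11 and TRA2B. They were taken by name, without regard to their values, from the 28277 genes listed in each of the 2 deposited count tables. All 10 passed the filter on low counts in both tables, where 15882 genes were tested in the first and 17020 in the second.

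SR proteins carry RNA-binding domains and a region rich in arginine and serine. They bind short sequences in exons of nascent transcripts, recruit the spliceosome to the neighbouring splice sites and so favour inclusion of the exon. Kinases of the SRPK and CLK families phosphorylate the arginine and serine region and control where the proteins sit in the nucleus. Most SR genes hold a so-called poison exon, whose inclusion introduces a premature stop codon and sends the transcript to nonsense-mediated decay, and through this exon many SR proteins limit their own expression. PDS is a small molecule that binds G-quadruplexes, the stacked structures formed by runs of guanine in DNA and RNA.

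Libraries fell into 8 conditions of 3 replicates each, 24 libraries in all. In the first table, untreated PEO1 A cells, which the study describes as BRCA2-deficient although their genotype label reads wild type, stood against untreated PEO4 A cells, the resistant line with functional BRCA2. In the second table, PEO1 B cells, called PEO1 BRCA+ in the study because a spontaneous reversion restored BRCA2, and PEO4 B cells, with a wild-type genotype label, were left untreated or received 5 µM PDS for 2 h or 6 h. All lines were grown in RPMI with serum, with sodium pyruvate added for the A pair. PEO1 and PEO4 came from one patient before and after resistance to chemotherapy, so the contrast between them spans everything that differs between these lines and not BRCA2 alone. The study describes the RNA-seq replicates as biological.

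Library totals were 32528913 to 63882077 counts in the A table. In the B table they were 18699929 to 22375644 in the 6 untreated and 33260167 to 43713947 in the 12 PDS libraries, so depth moved with treatment. Ribosomal RNA genes moved with it too, at 0.217 to 0.474% of counts in untreated and 0.0163 to 0.0369% in PDS libraries of the B table. Whatever differed in how these libraries were made or sequenced cannot be told apart from PDS in comparisons with untreated cells. Thinning libraries to an equal number of counts evens out depth alone. When every B library was thinned to 18699929 counts, the numbers of SR genes higher and lower were 10 and 0 in PEO1 B at 2 h, 8 and 0 at 6 h, 7 and 0 in PEO4 B at 2 h and 6 and 2 at 6 h. Before thinning, 26.4% and 26.2% of all genes were higher and lower in PEO1 B at 2 h and 27.0% and 26.0% at 6 h. In PEO4 B the shares were 33.3% and 32.0% at 2 h and 34.6% and 35.2% at 6 h. Shares of all genes after thinning are not given here. All 8 ovarian carcinoma markers were expressed in every library, with PAX8 at 104.7 to 346.5 CPM (counts scaled to a common library size) and WT1 at 82.6 to 187.1 CPM, while PTPRC stayed at or below 0.0418 CPM and CD3E was at 0. Of the 5 fibroblast markers, DCN and LUM stayed at or below 0.480 CPM. COL1A1 was at 2.27 to 32.69 CPM, and COL3A1 and PDGFRB reached 7.555 and 3.85 CPM. The summed level in PEO4 B was 19.99 to 36.8 CPM in untreated and 2.74 to 7.72 CPM in PDS libraries. The part of this gap in the results below was not tested. In untreated PEO1 A, PEO4 A and PEO1 B the sum was 32.5 to 36.7, 5.82 to 10.9 and 5.09 to 7.11 CPM. The leukocyte markers PTPRC, CD3E and CD68 summed to 32.2 to 54.5 CPM in untreated PEO4 B and 67.4 to 78.2 CPM after PDS, nearly all of it CD68. The 3 endothelial markers PECAM1, VWF and CDH5 reached at most 1.98 CPM.

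The 10 genes together took 0.175 to 0.258% of the counts of a library. Their summed level, in CPM scaled by the trimmed mean of M values (TMM), averaged 1904 ± 116 in PEO1 A and 2142 ± 102 in PEO4 A (SD, n = 3). In PEO1 B it went from 1725 ± 71.6 untreated to 2362 ± 66.7 after 2 h and 2302 ± 72.5 after 6 h of PDS. In PEO4 B it went from 1865 ± 98.3 untreated to 2592 ± 40.0 after 2 h and 2110 ± 16.9 after 6 h. On this scale the sum was thus above the untreated libraries at both times in both lines. In PEO4 B at 6 h it lay between the untreated and the 2 h level. As an unscaled share of counts, however, PEO4 B at 6 h (0.201 to 0.203%) overlapped untreated PEO4 B (0.192 to 0.206%). The other PDS groups stayed above the untreated cells of their line in this share. A change in the share of cells that express these genes and a change in their RNA per cell cannot be told apart in such bulk samples.

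**Figure D1:**
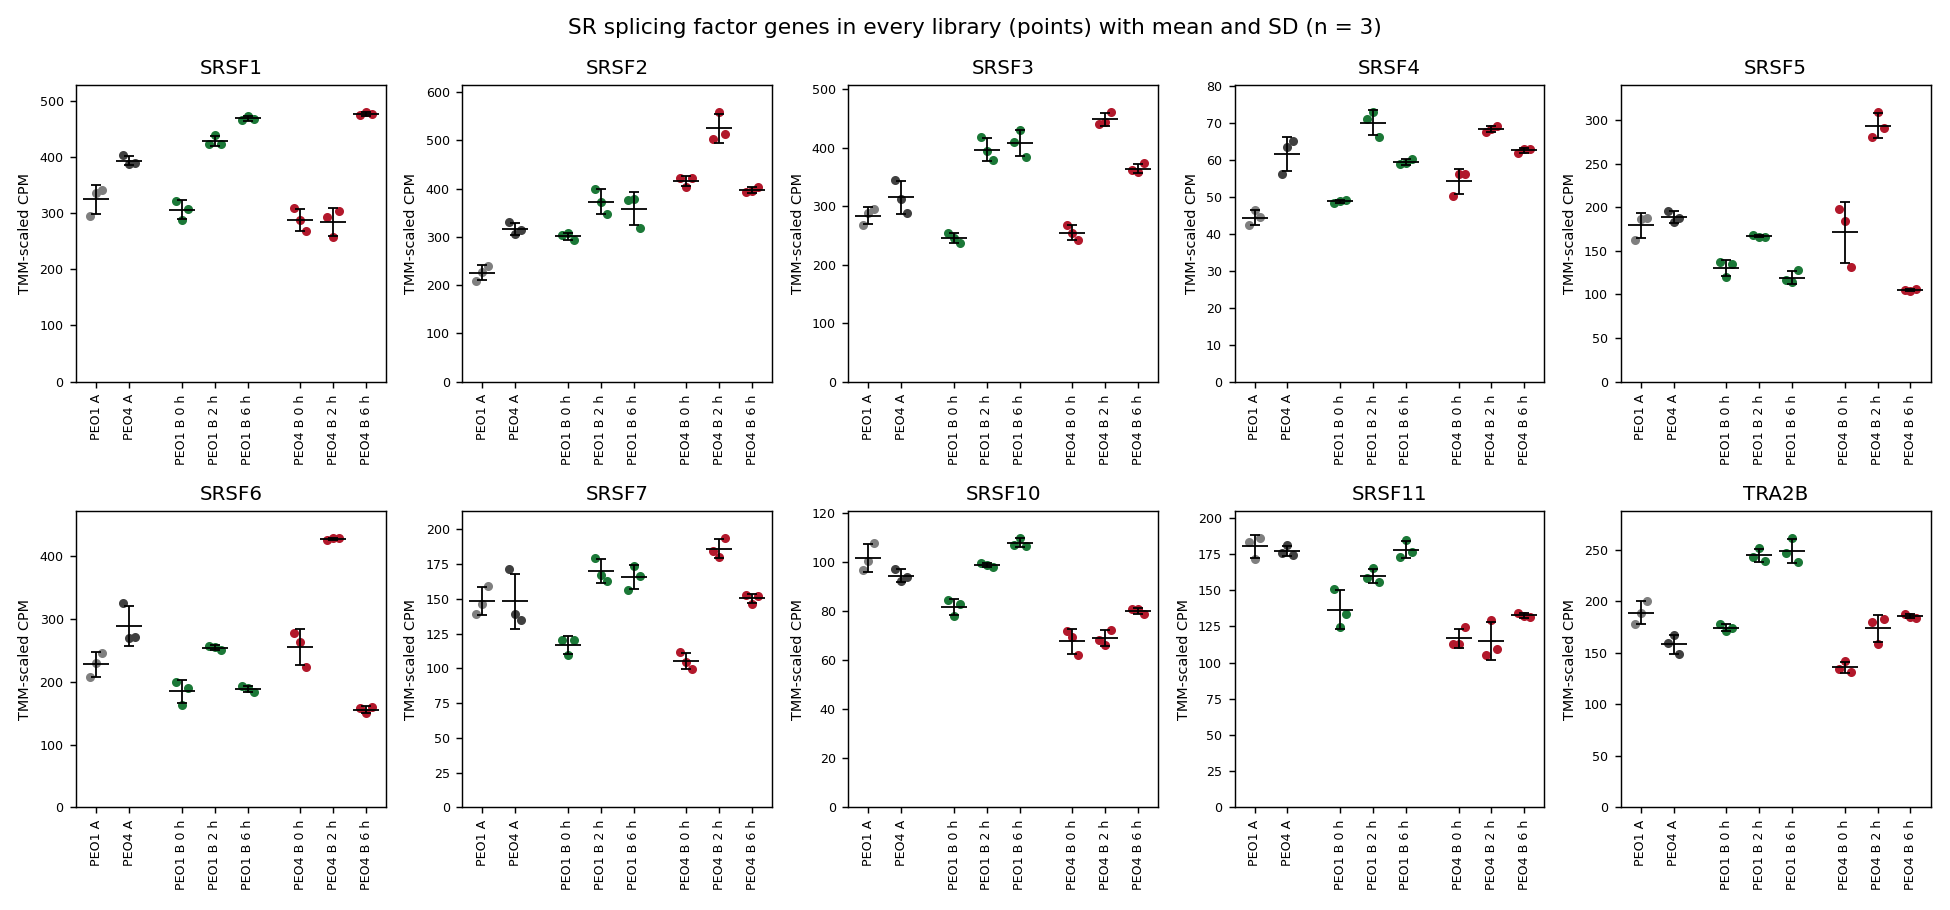
Each panel plots 1 gene, with TMM-scaled CPM on the y axis from 0 and the 8 conditions on the x axis. Points are single libraries, and the black bars mark the mean and the SD (n = 3). The A pair is in grey, PEO1 B in green and PEO4 B in red. The PEO4 B libraries of SRSF5 and SRSF6 stand highest after 2 h and lowest after 6 h, while those of SRSF1 stand level until 2 h and at 473.7 CPM or more at 6 h.

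Between genes, levels were compared as CPM per kilobase of merged exons. SRSF2, a factor of nuclear speckles, was the highest in all 8 conditions, from 75.8 in PEO1 A to 176.4 in PEO4 B after 2 h of PDS. SRSF4 was the lowest in PEO1 A, PEO4 A and PEO1 B, and SRSF10 in PEO4 B. In untreated PEO4 B the order ran SRSF2 (139.7 ± 3.47), SRSF6 (52.1 ± 5.82), SRSF1 (49.8 ± 3.49), SRSF3 (35.8 ± 1.79), SRSF5 (31.9 ± 6.49), SRSF7 (26.1 ± 1.46), SRSF11 (13.8 ± 0.762), TRA2B (10.4 ± 0.406), SRSF4 (6.16 ± 0.389) and SRSF10 (5.71 ± 0.429). The neighbours SRSF6 and SRSF1, SRSF3 and SRSF5, SRSF5 and SRSF7, and SRSF4 and SRSF10 lay within their SDs of each other. The scale depends on the gene model, since per kilobase of the longest coding transcript TRA2B stood at 32.5 and SRSF4 at 23.6 in the same libraries. By that measure SRSF10 was the lowest in all 8 conditions, as in PEO1 A at 13.3 against 19.3 for SRSF4. The order also moved with treatment, as SRSF6 was second of 10 in untreated PEO4 B and after 2 h, and came after SRSF1, SRSF3 and SRSF7 after 6 h.

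The deposited counts cover each whole gene, so that neither exon inclusion nor a poison exon can be read from them. GENCODE release 44 lists transcripts subject to nonsense-mediated decay for all 10, from 1 each for SRSF5, SRSF6 and TRA2B to 4 for SRSF11 and 6 for SRSF7. Counts of 3 members are uncertain through overlapping genes, as whether the counting used strand is not stated in the sources used here. SRSF2 (chr17:76734115-76737411, minus strand) contains MIR636 and overlaps MFSD11. MFSD11 had 1676 to 6466 counts in the A libraries, against 8538 to 21402 for SRSF2. In the B libraries it had 3378 to 9317, against 6332 to 21413 for SRSF2. MIR636 had 0 counts in the 6 A libraries and 1150 to 2350 in the B libraries, and the tables were not tested against each other. SRSF5 (chr14:69767142-69772005, plus strand) overlaps LOC100289511, which had 12 to 54 counts in the A and 514 to 1469 in the B libraries, against 2859 to 12109 for SRSF5 itself in the B table. SRSF4 (chr1:29147743-29181900, minus strand) overlaps MECR, with 140 to 501 counts in the B table against 1009 to 2888 for SRSF4.

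The first comparison asked how the SR genes of the line with restored BRCA2 responded to PDS. In PEO1 B all 10 genes rose within 2 h, with 26.4% of all genes tested higher and 26.2% lower. A gene passed the test at an adjusted p under 0.05 (edgeR's quasi-likelihood test, Benjamini-Hochberg over all genes), and "rose" and "fell" are used of such genes alone. The log2 fold changes ran from 0.23 for SRSF11 to 0.69 for SRSF3, with a median of 0.48 against -0.025 for all genes tested, and in all 10 the PDS libraries lay above every untreated one, as they did in 30.7% of all genes tested. After 6 h 8 of the 10 were higher and none lower than in untreated cells (27.0% and 26.0% of all genes), with a median of 0.39 against -0.027. When the counts were scaled by library totals, which lowered the median of all genes by 0.15 at each time, 8 rose and none fell at 2 h, and 7 rose and 1 fell at 6 h. Of the 17020 genes tested, 2838 were then higher and 6342 lower at 2 h, and 2977 and 6290 at 6 h. No member was lower in PEO1 B at either time at an unadjusted p under 0.05 or in DESeq2's Wald test.

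SRSF3, the smallest SR protein, which also helps to export mRNA, changed most in PEO1 B. Its level was 254.4, 245.6 and 237.4 CPM in the untreated libraries, 418.2, 393.4 and 378.8 CPM after 2 h and 410.0, 429.4 and 384.7 CPM after 6 h. Every PDS library was above every untreated one, and the levels of the 2 times overlapped. The log2 fold change was 0.69 ± 0.056 (SE) at 2 h (edgeR adjusted p = 4.3e-10) and 0.73 ± 0.056 at 6 h (edgeR adjusted p = 1.5e-10). SRSF7, an export adaptor closely related to SRSF3, went from 120.2, 109.3 and 120.7 CPM to 179.8, 167.4 and 162.7 CPM at 2 h and 156.4, 173.7 and 166.5 CPM at 6 h. It rose by 0.54 ± 0.059 and 0.50 ± 0.059 on the log2 scale, with no overlap with the untreated libraries.

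SRSF1, which promotes recognition of the upstream splice site of an intron and acts as an oncogene when in excess, stood at 322.0, 287.7 and 307.7 CPM in untreated PEO1 B. After 2 h it was at 423.7, 438.1 and 422.8 CPM, and after 6 h at 465.1, 473.6 and 467.2 CPM. The 3 groups did not overlap. The log2 fold change over untreated was 0.49 ± 0.062 at 2 h (edgeR adjusted p = 4.7e-07) and 0.62 ± 0.062 at 6 h (edgeR adjusted p = 1.2e-08). The step from 2 h to 6 h, 0.13 ± 0.061, did not pass (edgeR adjusted p = 0.23), though it did in an edgeR fit on the compared groups alone (0.12).

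TRA2B, an SR-like protein that promotes inclusion of many exons, among them the variable exon of SMN2, went from 177.8, 170.9 and 174.0 CPM to 242.7, 251.4 and 239.6 CPM at 2 h and 246.7, 261.8 and 238.2 CPM at 6 h. The log2 fold changes were 0.49 ± 0.056 and 0.51 ± 0.056. SRSF10, which represses splicing once it is dephosphorylated, rose from 78.1 to 84.4 CPM in range to 98.0 to 99.5 CPM and then 106.7 to 109.9 CPM. SRSF11 rose by 0.23 ± 0.070 at 2 h and 0.39 ± 0.070 at 6 h, and the first of these calls was lost without untreated replicate 2 (edgeR adjusted p = 0.058). That call was also lost under library totals (0.082) and upper-quartile scaling (0.15). SRSF2 rose by 0.31 ± 0.064 and 0.25 ± 0.064, the latter lost under library totals (0.10).

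SRSF4, SRSF5 and SRSF6, which resemble each other in having a pair of RNA-binding domains and a long arginine and serine region, were the genes that fell from 2 h to 6 h in PEO1 B. SRSF5 stood at 137.0, 119.6 and 134.7 CPM untreated, 168.4, 165.5 and 166.3 CPM after 2 h and 116.2, 114.2 and 127.4 CPM after 6 h. The 2 h libraries lay above all others, and the 6 h libraries overlapped the untreated ones. SRSF6 gave the same picture, with 199.5, 163.5 and 190.3 CPM untreated, 257.5, 254.9 and 250.9 CPM after 2 h and 192.6, 190.1 and 183.2 CPM after 6 h. Between 2 h and 6 h SRSF5 fell by 0.48 (edgeR adjusted p = 0.00603), SRSF6 fell by 0.43 (edgeR adjusted p = 0.00031) and SRSF4 fell by 0.24 (edgeR adjusted p = 0.00614) on the log2 scale, and without replicate 2 of the 2 h libraries the call for SRSF4 was lost (edgeR adjusted p = 0.058). These were 3 of 10 members lower, where 2.98% of all genes were lower and 3.96% higher. No member passed as higher in the main edgeR fit or in DESeq2's Wald test, and 3 were higher at an unadjusted p under 0.05. An edgeR fit on the compared groups alone gave 2 as higher, SRSF1 (0.12) and SRSF11 (0.15). The rise of SRSF5 at 2 h, 0.35 ± 0.10 (edgeR adjusted p = 0.00634), was lost under library totals (0.21). At 6 h SRSF4 was still above untreated (0.29 ± 0.054), whereas the differences from untreated of SRSF5 (-0.13 ± 0.10) and SRSF6 (0.033 ± 0.070) did not pass. SRSF5 did pass as lower under library totals (-0.27) and in the fit on the compared groups alone (-0.14).

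**Figure D2:**
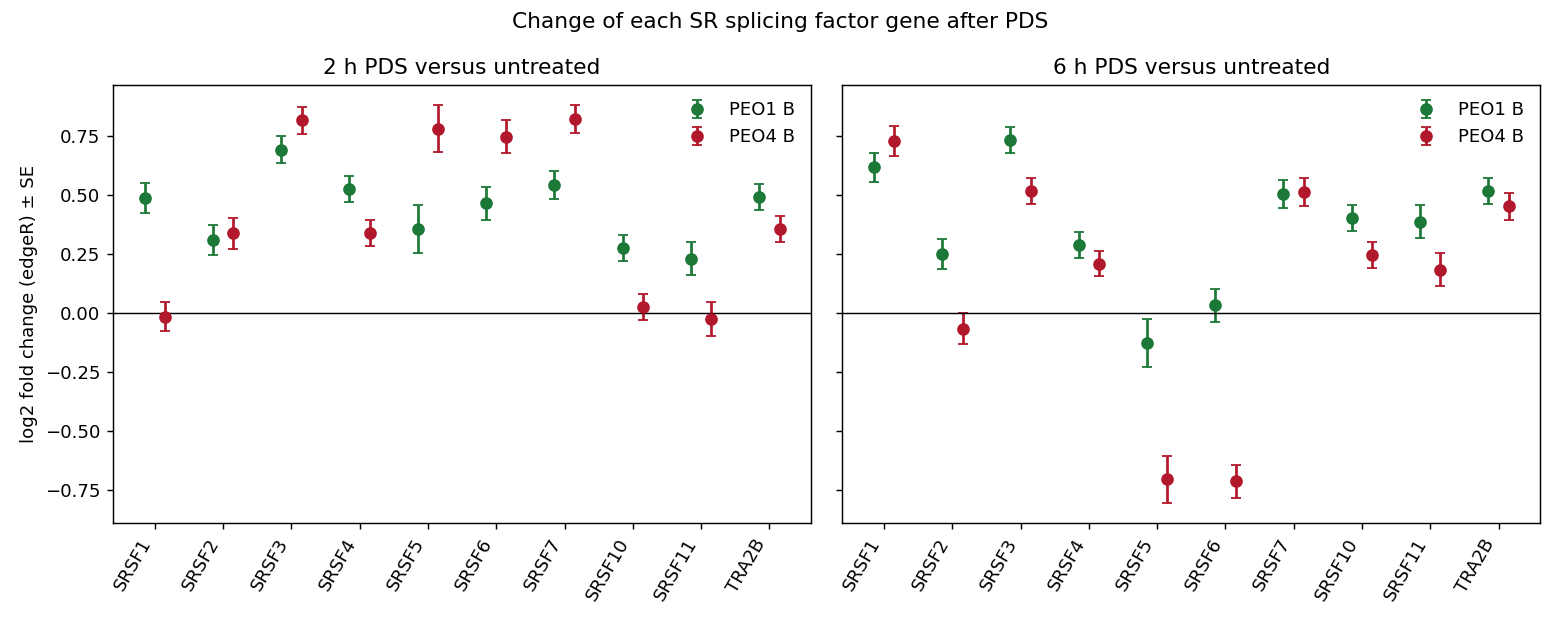
The panels plot the log2 fold change of each gene over untreated cells after 2 h and after 6 h of PDS, with bars of 1 SE, for PEO1 B (green) and PEO4 B (red). All PEO1 B values at 2 h lie above 0. In PEO4 B, SRSF5 and SRSF6 lie near 0.78 and 0.75 at 2 h and near -0.71 at 6 h.

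The same treatment was then examined in PEO4 B. After 2 h 7 of the 10 genes were higher and none lower (33.3% and 32.0% of all genes), with a median log2 fold change of 0.35 against 0 for all genes tested. After 6 h 7 were higher and 2 lower (34.6% and 35.2%), with a median of 0.23 against -0.028. Scaling by library totals lowered the median of all genes by 0.13 at 2 h and 0.16 at 6 h. It gave 7 higher and 1 lower at 2 h and 4 higher and 3 lower at 6 h, and upper-quartile scaling gave 5 and 3 at 6 h. Of the 17020 genes tested, library totals gave 4431 higher and 6762 lower at 2 h and 4519 and 7400 at 6 h. Upper-quartile scaling gave 4923 and 6992 of them at 6 h. At 2 h no member was lower at an unadjusted p under 0.05 or in DESeq2's Wald test. The directions of SRSF3, SRSF5, SRSF6, SRSF7 and TRA2B at both times, and of SRSF1 at 6 h, passed under each scaling.

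SRSF5 and SRSF6 moved first up and then down in PEO4 B. SRSF5 stood at 197.7, 183.7 and 131.7 CPM in the untreated libraries, 280.4, 309.2 and 290.7 CPM after 2 h and 105.5, 103.7 and 105.6 CPM after 6 h. The groups did not overlap, with the 2 h libraries above and the 6 h libraries below all untreated ones, although the untreated libraries were far apart. SRSF5 rose at 2 h by 0.78 ± 0.10 (1.72-fold, edgeR adjusted p = 1.8e-06). At 6 h it was lower than in untreated cells by -0.71 ± 0.10 (edgeR adjusted p = 5.3e-06). Leaving out any 1 library gave 0.62 to 0.90 at 2 h and -0.86 to -0.58 at 6 h.

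SRSF6 stood at 278.3, 263.9 and 223.3 CPM untreated, 426.2, 429.3 and 428.2 CPM after 2 h and 158.0, 149.4 and 159.8 CPM after 6 h. The 3 groups did not overlap here either, and the spread was small in both PDS groups. SRSF6 rose at 2 h by 0.75 ± 0.069 (1.68-fold, edgeR adjusted p = 1.2e-09) and was lower than untreated by -0.71 ± 0.070 at 6 h (edgeR adjusted p = 2.0e-09). From 2 h to 6 h SRSF5 fell by 1.48 and SRSF6 fell by 1.46 on the log2 scale, a 2.80-fold and a 2.75-fold drop. In no other comparison did a member pass with an absolute log2 fold change over 1, and 9.71% of all genes were as much lower in this one.

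The promoters of SRSF5 and SRSF6 are shown because these genes took a like course in PEO4 B, and that of SRSF1 because it took another one. Each run is the 250 bases before the RefSeq start of the gene on GRCh38.p14, read 5′ to 3′ on the gene's strand, and capitals mark TGACG or its reverse complement CGTCA, the half-site of the cyclic AMP response element. SRSF5 is at chr14:69766892-69767141 (plus strand), SRSF6 at chr20:43457646-43457895 (plus strand) and SRSF1 at chr17:58007247-58007496 (minus strand).
SRSF5: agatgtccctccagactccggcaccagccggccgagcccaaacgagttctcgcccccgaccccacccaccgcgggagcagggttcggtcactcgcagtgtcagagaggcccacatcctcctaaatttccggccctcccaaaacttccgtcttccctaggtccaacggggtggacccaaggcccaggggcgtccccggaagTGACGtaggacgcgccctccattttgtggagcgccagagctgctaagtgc
SRSF6: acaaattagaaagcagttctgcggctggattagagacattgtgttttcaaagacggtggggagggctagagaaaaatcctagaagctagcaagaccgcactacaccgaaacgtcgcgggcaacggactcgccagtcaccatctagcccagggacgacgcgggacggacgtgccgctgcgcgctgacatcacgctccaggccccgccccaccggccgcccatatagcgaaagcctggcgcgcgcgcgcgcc
SRSF1: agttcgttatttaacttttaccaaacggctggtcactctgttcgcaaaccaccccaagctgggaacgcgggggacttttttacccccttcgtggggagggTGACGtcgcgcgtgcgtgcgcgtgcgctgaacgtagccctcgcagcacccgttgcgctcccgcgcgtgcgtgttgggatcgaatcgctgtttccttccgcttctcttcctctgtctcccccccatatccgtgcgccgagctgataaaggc
The half-site, looked for after these windows had been seen, occurred in 25.0% of 27305 promoter windows of 300 bases (250 before and 50 after the start) and in 5 of the 9 members that had a window, namely SRSF1, SRSF3, SRSF5, SRSF11 and TRA2B. SRSF6 was not among them. Whether the half-site has a part in the course of any of these genes was not tested. The CCAAT box (CCAAT or ATTGG) was in 35.7% of windows and in 1 member, SRSF3, and TATAAA or TTTATA was in 12% and in 2, SRSF3 and SRSF11. As PDS binds G-quadruplexes, both strands were also searched for 4 runs of at least GGG with gaps of 1 to 7 bases. This pattern was in 24.1% of windows and in 1 of the 9 members, SRSF7, at chr2:38751568-38751597, from 103 to 74 bases before the start, with the runs of G in capitals:
SRSF7: GGGGagaggaGGGGGcGGGacagcatGGGG
With gaps of up to 12 bases it was in 36.6% of windows and in SRSF7 and TRA2B. The search covered DNA near the start used for each gene alone, and a window of SRSF2 was not analysed here. The 250 bases taken for SRSF11, chr1:70221130-70221379, lie inside the gene, which spans chr1:70205696-70253052 on the plus strand. Its matches are thus not at the outermost start of the gene.

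SRSF1 took the other course in PEO4 B. It stood at 308.3, 287.5 and 268.0 CPM untreated and 293.4, 256.8 and 303.8 CPM after 2 h, which overlapped, and at 473.7, 480.1 and 476.3 CPM after 6 h, above all others. The log2 fold change at 2 h was -0.017 ± 0.062 (edgeR adjusted p = 0.83), though under library totals SRSF1 passed as lower (-0.15), and at 6 h SRSF1 rose by 0.73 ± 0.062 (1.66-fold, edgeR adjusted p = 1.7e-10). Nearly all of this step lay between 2 h and 6 h, where SRSF1 rose by 0.74 ± 0.062 (edgeR adjusted p = 4.2e-10).

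SRSF10 and SRSF11 likewise did not pass at 2 h. SRSF10 stood at 71.8, 69.4 and 62.0 CPM untreated, 68.1, 66.2 and 72.4 CPM after 2 h and 80.8, 81.0 and 78.8 CPM after 6 h, and it rose at 6 h by 0.24 ± 0.056 (edgeR adjusted p = 0.00044). SRSF11, at 113.0, 113.0 and 124.2 CPM untreated, had 105.5, 129.6 and 109.2 CPM after 2 h and 134.0, 132.4 and 131.1 CPM after 6 h. It passed at 6 h (0.18 ± 0.071, edgeR adjusted p = 0.0245), and this call was lost without untreated replicate 1 (edgeR adjusted p = 0.0708), untreated replicate 2 (0.0555) or replicate 1 of the 6 h libraries (0.0505). Under library totals neither gene passed at 6 h (0.085 and 0.022), and SRSF11 also did not under upper-quartile scaling (0.069), with a minimum of 1 CPM (0.15) or after thinning (0.14).

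SRSF3 and SRSF7 rose early and came part of the way back. SRSF3 went from 267.8, 254.4 and 242.3 CPM to 440.3, 443.9 and 461.1 CPM at 2 h and 361.0, 358.2 and 373.0 CPM at 6 h. SRSF7 went from 111.6, 104.8 and 99.8 CPM to 184.5, 180.2 and 194.1 CPM and then 152.5, 146.6 and 152.1 CPM. In both genes the groups did not overlap. At 2 h both showed the largest rises among the members in this line, by 0.82 ± 0.056 for SRSF3 (edgeR adjusted p = 5.7e-12) and 0.82 ± 0.059 for SRSF7 (edgeR adjusted p = 1.3e-11). At 6 h both stood 0.51 above untreated on the log2 scale.

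SRSF2 went from 422.5, 403.9 and 421.0 CPM to 501.9, 558.9 and 514.0 CPM at 2 h and 392.2, 394.9 and 404.1 CPM at 6 h. It rose by 0.34 ± 0.064 at 2 h (edgeR adjusted p = 6.1e-05), and the difference at 6 h, -0.067 ± 0.064, did not pass, while under library totals (-0.23) and upper-quartile scaling (-0.18) it passed as lower. SRSF4 rose by 0.34 ± 0.054 at 2 h and 0.21 ± 0.054 at 6 h, the latter lost under library totals (0.048) and upper-quartile scaling (0.095). TRA2B went from 134.1, 141.9 and 131.7 CPM to 179.7, 158.9 and 182.7 CPM at 2 h and 188.1, 185.0 and 183.8 CPM at 6 h, and it rose by 0.35 ± 0.056 and 0.45 ± 0.056.

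**Figure D3:**
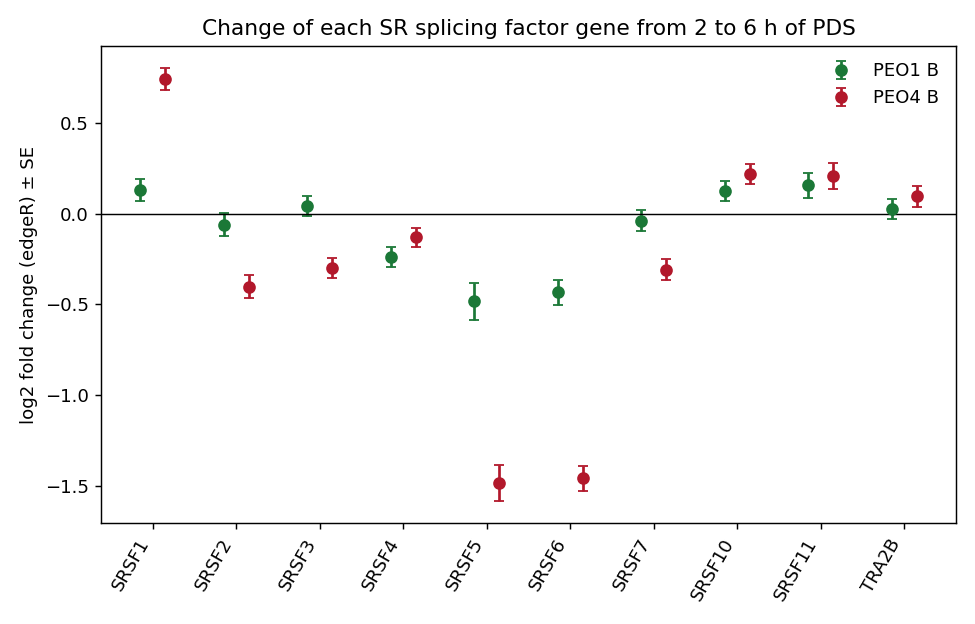
The log2 fold change from 2 h to 6 h of PDS is plotted for each gene with bars of 1 SE, for PEO1 B (green) and PEO4 B (red). In PEO4 B SRSF5 and SRSF6 lie near -1.48 and -1.46 and SRSF1 at 0.74, while in PEO1 B the values run from -0.48 to 0.16.

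Between 2 h and 6 h in PEO4 B, 3 of the 10 genes rose and 6 fell (28.9% and 31.3% of all genes), with a median log2 fold change of -0.21 against -0.021. Those higher were SRSF1, SRSF10 (0.22 ± 0.055) and SRSF11 (0.21 ± 0.070). The call for SRSF11 was lost without replicate 1 (edgeR adjusted p = 0.0834) or replicate 3 (0.0503) of the 2 h libraries, and under upper-quartile scaling (0.16). Those lower were SRSF5, SRSF6, SRSF2 (-0.40 ± 0.064), SRSF7 (-0.31 ± 0.058), SRSF3 (-0.30 ± 0.055) and SRSF4 (-0.13 ± 0.053). SRSF4 did not pass without any 1 of the 6 libraries compared, with edgeR adjusted p between 0.0676 and 0.128, nor with no filter on low counts (-0.12) or after thinning (-0.093). All 10 genes had groups that did not overlap between the times, where 68.0% of all genes tested did so, and they included TRA2B, whose difference of 0.095 ± 0.056 did not pass (edgeR adjusted p = 0.14).

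Whether the lines responded differently was tested as the difference of their responses, PEO4 B minus PEO1 B, on the log2 scale. At 2 h the response passed as larger in PEO4 B for 3 genes and smaller for 3 (19.3% and 18% of all genes). It was smaller for SRSF1, -0.50 ± 0.087 (edgeR adjusted p = 6.4e-05), and for SRSF10 (-0.25 ± 0.079) and SRSF11 (-0.25 ± 0.10), which all rose in PEO1 B at 2 h and did not pass in PEO4 B. It was larger for SRSF7 (0.28 ± 0.083), SRSF5 (0.42 ± 0.14) and SRSF6 (0.28 ± 0.098). The last 2 and SRSF11 were near the threshold. For SRSF5 the adjusted p rose to between 0.0503 and 0.0758 without untreated PEO1 B replicate 1 or 3, PEO1 B 2 h replicate 3 or PEO4 B 2 h replicate 2. For SRSF6 it rose to between 0.0523 and 0.104 without untreated PEO1 B replicate 1 or 3, PEO1 B 2 h replicate 2 or 3 or untreated PEO4 B replicate 3. For SRSF11 it rose to between 0.0502 and 0.134 without any 1 of 8 of the 12 libraries, and the 4 whose absence left the call were untreated PEO1 B replicate 1, untreated PEO4 B replicates 1 and 2 and PEO4 B 2 h replicate 2. It was lost as well under library totals (-0.24) and upper-quartile scaling (-0.24), which leave 2 smaller responses. Fits on the compared groups alone lost it (-0.27) together with SRSF5 (0.41) and SRSF6 (0.27). For SRSF4 the difference (-0.19 ± 0.076) did not pass, and it did without PEO1 B 2 h replicate 3 (edgeR adjusted p = 0.0287) or untreated PEO4 B replicate 1 (0.0142). It also passed with DESeq2's size factors, a minimum of 1 CPM or DESeq2's Wald test, each at -0.21.

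At 6 h the response of 4 genes was lower in PEO4 B and of none higher (23.0% and 24.4% of all genes), and with DESeq2's Wald test and at an unadjusted p under 0.05 none was higher either. SRSF6 differed most, by -0.75 ± 0.099 (edgeR adjusted p = 1.3e-06), followed by SRSF5 at -0.58 ± 0.14 (edgeR adjusted p = 0.00271). In the main fit these genes fell below untreated in PEO4 B alone. SRSF5 also passed as lower in PEO1 B under library totals (-0.27) and in the fit on the compared groups alone (-0.14). SRSF2 differed by -0.32 ± 0.091 (edgeR adjusted p = 0.0058). SRSF3 differed by -0.22 ± 0.079 (edgeR adjusted p = 0.0263), a call lost without any 1 of 6 libraries, replicate 1 or 2 of either line at 6 h, untreated PEO1 B replicate 3 and untreated PEO4 B replicate 1 (edgeR adjusted p between 0.0533 and 0.0774), and with no filter on low counts (-0.20). For SRSF1, behind at 2 h, the difference at 6 h was 0.11 ± 0.087 and did not pass. The difference for SRSF10 passed without untreated PEO4 B replicate 3 (-0.21, edgeR adjusted p = 0.0207) and that for SRSF11 without untreated PEO1 B replicate 1 (-0.28, edgeR adjusted p = 0.0226). SRSF10 also passed under upper-quartile scaling (-0.18) and SRSF11 after thinning (-0.23).

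In other lists of splicing genes, too, more genes rose than fell, apart from the kinases, the hnRNP proteins and the decay factors in PEO4 B at 2 h, where the numbers were even. Of all genes tested, 26.4% were higher and 26.2% lower in PEO1 B at 2 h, and 27.0% and 26.0% at 6 h. In PEO4 B the shares were 33.3% and 32.0% at 2 h and 34.6% and 35.2% at 6 h. Those under library totals, given above for all genes, leaned to the lower side. Of 20 other SR and SR-related genes, 11 rose and 3 fell in PEO1 B at each time, and in PEO4 B 13 rose and 2 fell at 2 h and 15 rose and 3 fell at 6 h. The median log2 fold changes at 6 h were 0.16 in PEO1 B and 0.35 in PEO4 B. Under library totals 7 rose and 4 fell in PEO1 B and 11 rose and 3 fell in PEO4 B at 6 h. At 2 h 6 rose and 5 fell in PEO1 B under library totals, and 8 rose and 4 fell in PEO4 B. In PEO1 B LUC7L3, a U1-associated SR-like factor, rose from 96.9 ± 10.7 to 151.1 ± 9.97 CPM after 6 h, and SRRM2, a scaffold of nuclear speckles, fell from 823.6 ± 80.0 to 520.9 ± 58.5 CPM (SD, n = 3). In PEO4 B RSRC1 rose by 0.74 ± 0.085 and SRSF12, expressed at only 3.98 ± 0.249 CPM in untreated cells, by 0.72 ± 0.14.

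Of the kinases that phosphorylate SR proteins, 8 of 9 were tested. In PEO1 B 4 rose and 2 fell at each time. In PEO4 B 3 rose and 3 fell at 2 h, and 6 rose and 1 fell at 6 h. Under library totals the numbers were even in PEO1 B at each time (2 and 2, then 3 and 3), and in PEO4 B 0 rose and 4 fell at 2 h and 5 rose and 1 fell at 6 h. CLK1, a nuclear kinase of SR proteins, went from 27.5 ± 5.31 to 41.9 ± 1.56 CPM after 6 h in PEO1 B and from 24.7 ± 4.64 to 42.3 ± 1.17 CPM in PEO4 B, a rise of 0.60 ± 0.11 and 0.78 ± 0.11. CLK4 rose by 0.66 ± 0.11 in PEO4 B. SRPK3 fell by 1.02 in PEO1 B, from 1.22 ± 0.154 CPM.

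The hnRNP proteins, which often act against SR proteins at exons, gave 18 of 23 genes higher and none lower in PEO1 B at each time. In PEO4 B 8 rose and 8 fell at 2 h, and 18 rose and 2 fell at 6 h. Neither 0 in PEO1 B changed at an unadjusted p under 0.05 or in DESeq2's Wald test, whereas under library totals 13 rose and 3 fell at 2 h and 12 rose and 2 fell at 6 h there, and in PEO4 B 7 rose and 11 fell at 2 h. The response at 2 h was smaller in PEO4 B for 13 of the 23 and larger for none (18% and 19.3% of all genes). DESeq2's Wald test and an unadjusted p under 0.05 gave no larger one either. HNRNPM rose from 484.3 ± 25.3 to 749.7 ± 14.8 CPM after 6 h in PEO1 B and from 427.2 ± 55.5 to 749.4 ± 32.1 CPM in PEO4 B. HNRNPF (0.55 ± 0.055) in PEO1 B and HNRNPD (0.73 ± 0.063) in PEO4 B also rose.

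Of 33 core spliceosome genes tested, 29 rose and 2 fell in PEO1 B at 2 h, and 28 rose and 2 fell at 6 h. In PEO4 B 17 rose and 5 fell at 2 h, and 30 rose and none fell at 6 h, with a median log2 fold change of 0.52. At an unadjusted p under 0.05 and in DESeq2's Wald test none fell either, and under library totals 24 rose and 1 fell. SNRPD2, a component of the Sm ring of spliceosomal particles, rose from 118.9 ± 4.17 to 224.6 ± 19.1 CPM in PEO1 B and from 122.0 ± 10.2 to 265.6 ± 7.92 CPM in PEO4 B after 6 h, and SNRPE, of the same ring, rose by 1.21 ± 0.078 in PEO4 B. PRPF31 fell by 1.70 in PEO1 B from a low 0.817 ± 0.285 CPM. Of 10 factors of nonsense-mediated decay, 5 rose and 2 fell after 2 h and 6 rose and 2 fell after 6 h in PEO1 B, and 4 rose and 4 fell after 2 h and 5 rose and 1 fell after 6 h in PEO4 B. Under library totals 3 rose and 6 fell after 2 h in PEO4 B. UPF3B rose by 0.97 ± 0.083 and 1.03 ± 0.087 and UPF2 by 0.67 ± 0.051 and 0.89 ± 0.052 in PEO1 B and PEO4 B. Each of these comparisons with untreated cells shares its untreated libraries with the other time.

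**Figure D4:**
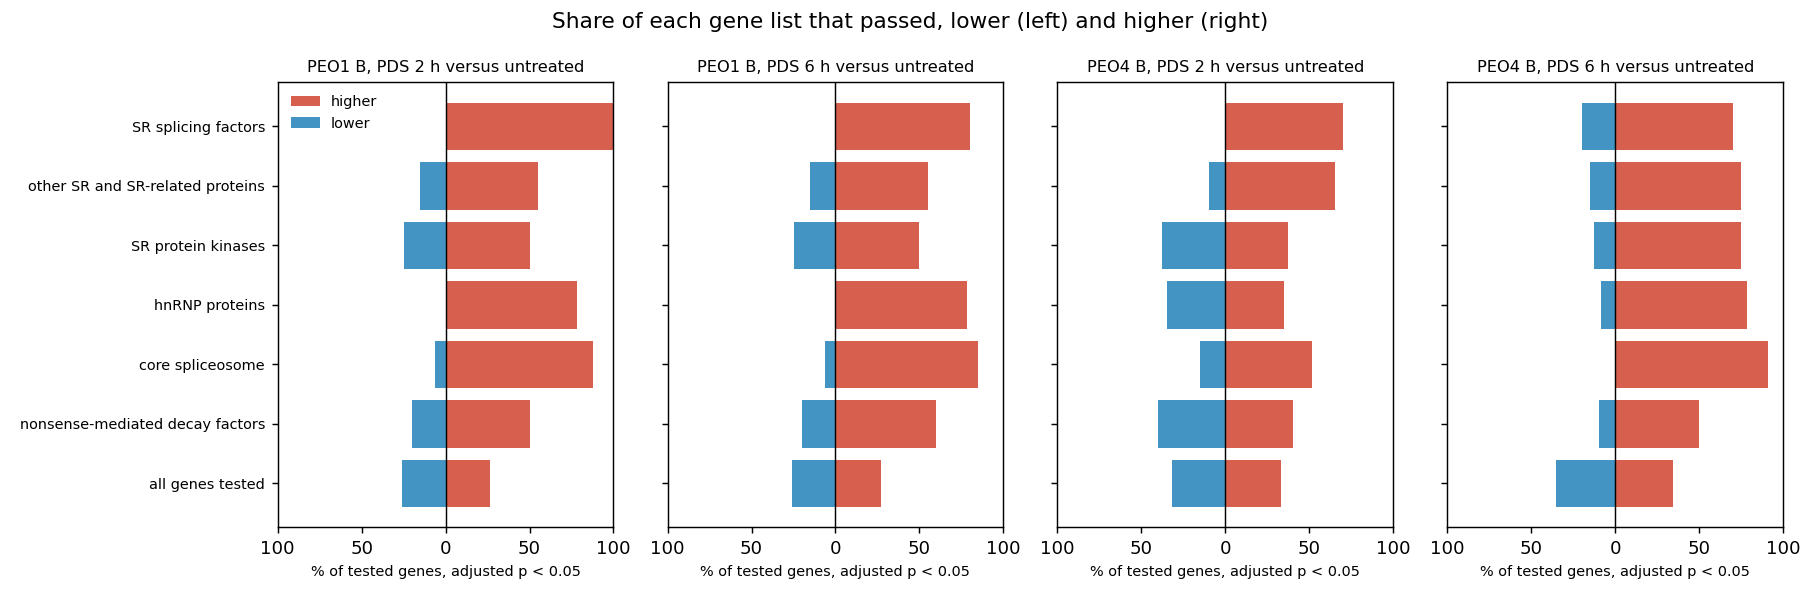
Bars give the share of the tested genes of each list that passed at an adjusted p under 0.05 as lower (blue, to the left of 0) or higher (red, to the right), in percent, for each line and time against untreated cells. All 10 SR splicing factors are on the higher side in PEO1 B at 2 h. The share of core spliceosome genes on the higher side in PEO4 B is 17 of 33 at 2 h and 30 of 33 at 6 h.

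The untreated lines were compared to see how the SR genes stood before any PDS. PEO4 A had 4 of the 10 genes higher and 1 lower than PEO1 A (30.1% and 31.6% of all genes), with a median log2 fold change of 0.11. PEO4 B had 4 higher and 4 lower than PEO1 B (34.0% and 34.6%), with a median of -0.017. These shares of members were near those of all genes or, for the genes lower in the A pair, below them.

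SRSF2, SRSF4 and SRSF6 were higher in PEO4 in both pairs. SRSF2 stood at 209.1, 227.9 and 239.9 CPM in PEO1 A and 329.8, 304.9 and 315.1 CPM in PEO4 A, a log2 fold change of 0.49 ± 0.078 (edgeR adjusted p = 0.00013). In the B pair it stood at 303.4, 307.0 and 292.9 CPM in PEO1 and 422.5, 403.9 and 421.0 CPM in PEO4 (0.47 ± 0.064, edgeR adjusted p = 6.3e-07). The lines did not overlap in either pair. SRSF6 stood at 207.4, 229.3 and 245.9 CPM in PEO1 A against 325.2, 269.4 and 271.2 CPM in PEO4 A (0.34 ± 0.094, edgeR adjusted p = 0.00678), and it was higher by 0.47 ± 0.070 in PEO4 B (edgeR adjusted p = 2.0e-06).

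SRSF4 stood at 42.4, 46.4 and 44.6 CPM in PEO1 A against 56.3, 63.6 and 65.1 CPM in PEO4 A (0.47 ± 0.082, edgeR adjusted p = 0.00028). Its difference in the B pair, 0.15 ± 0.055 (edgeR adjusted p = 0.0185), was lost without PEO4 B replicate 2 (0.0685) or 3 (0.0756), with no filter on low counts (0.14) and in the fit on the compared groups alone (0.16). TRA2B was lower in PEO4 in both pairs. It stood at 178.3, 189.1 and 200 CPM in PEO1 A against 159.5, 167.1 and 148.6 CPM in PEO4 A (-0.26 ± 0.076, edgeR adjusted p = 0.0109), a call lost without PEO1 A replicate 3 (0.0653) or PEO4 A replicate 3 (0.0570), and it was lower by -0.36 ± 0.057 in the B pair (edgeR adjusted p = 4.5e-06).

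The other members did not pass in both pairs. SRSF1 was higher in PEO4 A, at 403.5, 387.4 and 389.6 CPM against 294.6, 336.6 and 341.9 CPM (0.28 ± 0.080, edgeR adjusted p = 0.00871), and its value in the B pair was -0.086 ± 0.062. SRSF5 passed in the B pair (0.39 ± 0.10, edgeR adjusted p = 0.00216), where the lines overlapped, and not in the A pair (0.076 ± 0.078). SRSF10 (-0.27 ± 0.057), SRSF11 (-0.22 ± 0.071) and SRSF7 (-0.15 ± 0.060) were lower in PEO4 B. The call for SRSF11 was lost without PEO1 B replicate 1 (edgeR adjusted p = 0.0892). That for SRSF7 was lost without PEO1 B replicate 1 or 3 or PEO4 B replicate 2 or 3 (edgeR adjusted p between 0.0662 and 0.136) and in the fit on the compared groups alone (-0.14). In the A pair SRSF10 (-0.11 ± 0.071), SRSF11 (-0.027 ± 0.069) and SRSF7 (0.0021 ± 0.096) did not pass. SRSF3 passed in neither pair (0.15 ± 0.084 and 0.052 ± 0.056), apart from the A pair under upper-quartile scaling (0.21). It was nonetheless among the members that rose most after PDS.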

How the data were processed

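Poly(A) RNA of the 24 samples was sequenced paired-end. According to the submitters' processing notes, reads were checked with FastQC, trimmed with fastp, aligned to hg38 with STAR and counted with featureCounts, for which no versions are given in the sources used here. The authors deposited whole-number counts per gene, not normalized, in 2 tables of 6 and 18 libraries. Strand settings and the library kit of the second table are not given in the sources used here. Lines without readable counts (2 and 1) were left out.

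The main test was that of edgeR 4.0.16 under R 4.3.3 (filterByExpr defaults, TMM, robust quasi-likelihood test on group means, Benjamini-Hochberg over all genes tested), in each table separately, and the fit was tested on simulated data. The SE of a log2 fold change is its size divided by the square root of the F statistic. A gene passed at an adjusted p under 0.05, and those with an absolute log2 fold change over 1, the study's threshold, were counted too. The study's own tool was DESeq2, used here (version 1.42.0) as an alternative beside other scalings and filters, thinned libraries, fits on the compared groups alone, a replicate block and fits without each library. Same-numbered replicates were not treated as pairs. Precision rests on 3 libraries per condition, and the lowest count of a member in any library was 1009.

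All 10 members were named, and from each further list the 2 genes with the largest change among those that passed after 6 h in each line. The members and lists were chosen with earlier results of these data known. Gene positions and overlaps are from RefSeq, and strands, exon lengths and transcript types from GENCODE release 44. Promoter windows are from RefSeq (GRCh38.p14), in which 9 of 10 members were matched. Protein sequences were not used here, and 1 listed cell type marker is not reported here.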

Additional observations from a re-analysis of the deposited data

Results flagged for a closer look

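10 differences between the lines in their response to PDS passed the edgeR test of the difference itself. All are PEO4 B minus PEO1 B on the log2 scale. At 2 h they were SRSF1 (-0.50), SRSF10 (-0.25), SRSF11 (-0.25), SRSF5 (0.42), SRSF6 (0.28) and SRSF7 (0.28). At 6 h they were SRSF6 (-0.75), SRSF5 (-0.58), SRSF2 (-0.32) and SRSF3 (-0.22). Such differences were common among all genes tested. At 2 h the response passed as larger in PEO4 B for 19.3% of them and as smaller for 18%. At 6 h it passed as higher for 24.4% and as lower for 23.0%. Whether the members differed between the lines more often than other genes was not tested.

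For SRSF5 and SRSF6 the differences passed at both times with opposite signs, and how many of all genes did so was not counted. The response of both was larger in PEO4 B at 2 h and lower at 6 h, and no other member passed at both times. The differences at 6 h passed without any 1 library, from -0.73 to -0.46 for SRSF5 and from -0.83 to -0.67 for SRSF6. Those at 2 h did not, from 0.27 to 0.53 and from 0.19 to 0.35. The difference for SRSF1 at 2 h passed without any 1 library, from -0.56 to -0.44. The untreated libraries of each line are shared by the 2 times.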

How the results depend on the processing

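Alternatives other than leaving out a library changed neither direction nor call in 840 of 890 values of single members. Requiring an absolute log2 fold change over 1 left 0 members in every comparison but PEO4 B from 2 h to 6 h, where 2 were lower. At an adjusted p under 0.01, 0 members were lower in PEO4 A, and at 2 h 0 responses were larger and 1 smaller in PEO4 B. Library totals gave 1 member lower in PEO1 B at 6 h, 1 lower in PEO4 B at 2 h and 4 higher in PEO4 B at 6 h. Fitting the compared groups alone gave 1 lower in PEO1 B at 6 h, 2 higher from 2 h to 6 h in PEO1 B and 1 larger response in PEO4 B at 2 h. Without 1 library each, members lower numbered 0 to 1 in PEO4 A (0 without PEO1 A or PEO4 A replicate 3) and 2 to 4 in PEO4 B against PEO1 B (2 without PEO1 B replicate 1), and larger responses in PEO4 B at 2 h numbered 1 to 3 (1 without PEO1 B 2 h replicate 3 or untreated PEO1 B replicate 1 or 3).

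Directions that turned were all of values that did not pass. They were SRSF7 in the A pair with the replicate block (-0.0043), SRSF11 there under upper-quartile scaling (0.033), SRSF6 in PEO1 B at 6 h under library totals (-0.11) and upper-quartile scaling (-0.055), and SRSF1 in PEO4 B at 2 h with no filter (0.0061). SRSF10 in PEO4 B at 2 h turned under library totals (-0.10), upper-quartile scaling (-0.037) and a minimum of 1 CPM (-0.0067). The difference in response of SRSF7 at 6 h turned under library totals (-0.0044), DESeq2's size factors (-0.00048), upper-quartile scaling (-0.016), thinning (-6.3e-05) and DESeq2's Wald test (-0.00061). Without 1 library each, values ranged from -0.11 to 0.069 for SRSF7 in the A pair, and from -0.037 to 0.10 for SRSF6 in PEO1 B at 6 h. From 2 h to 6 h in PEO1 B they ranged from -0.11 to 0.019 for SRSF2, -0.073 to 0.0030 for SRSF7 and -0.012 to 0.057 for TRA2B. In PEO4 B at 2 h they ranged from -0.063 to 0.057 for SRSF1, -0.032 to 0.071 for SRSF10 and -0.12 to 0.034 for SRSF11. Differences in response ranged from -0.028 to 0.069 for SRSF2 at 2 h and from -0.027 to 0.052 for SRSF7 at 6 h. The causes were not tested.

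Same-numbered replicates did not deviate together (r from -0.16 to 0.13), so the numbers were not taken to pair the samples. Under the replicate block the difference in response of SRSF11 at 2 h (-0.25) no longer passed, which made 2 responses smaller in PEO4 B where 3 had been, and no other call on a member changed.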
